A study of Mus musculus with 6 samples.

Results

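The 9 transcription factors described here belong to the Sox and forkhead (Fox) families and were followed in endothelial cells of normal mouse brain and of glioma. They are Sox7, Sox17, Sox18, Foxf2, Foxq1, Foxc1, Foxo1, Foxo3 and Foxp1, 9 of the 24421 gene symbols in the files, and they were taken by symbol. All 9 symbols stood in the files, 8 were above 0 in all 6 libraries, and these 8 passed the filter on low values. The normal group was sorted endothelium from normal brain and the glioma group was sorted endothelium from tumors 3 weeks after orthotopic injection, with 3 libraries in each. All cells came from the C57BL/6 strain, and the design text names GL26l cells, placed intracranially in congenic mice, as the source of the tumors. The sources used here do not give age, sex or the number of animals behind a library, so a p-value here measures only how these libraries vary, which may be technical.

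The members belong to 2 families of DNA-binding proteins. Sox proteins bind DNA through an HMG box, and Sox7, Sox17 and Sox18 form the SoxF group, which acts in arterial and lymphatic vessel development and overlaps in function in endothelium. Forkhead proteins bind DNA through a winged helix. In brain vessels the Wnt/beta-catenin pathway maintains the blood-brain barrier, the tight and selectively transporting endothelium of the brain, and Sox17, Foxq1 and Foxf2 are known as factors linked to that barrier program. FoxO proteins act downstream of insulin and growth factor signalling: the kinase AKT phosphorylates them and so keeps them out of the nucleus.

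Each library had 1 value per symbol, read as log2(x + 1) of quantile-normalized values. The libraries were built with a QuantSeq kit, whose reads come from the 3′ end of transcripts, so a level is not scaled by gene length. Sequencing depth is unknown. Between 7446 and 13108 genes lay above 0 in a library, and the lowest value above 0 ranged from 0.22 to 7.43, the latter in normal replicate 1. All 12 endothelial markers were above 0 in every library. Their summed level was 1.93%, 3% and 3% of the library sum for normal and 1.03%, 2.05% and 1.41% for glioma endothelium, so the groups overlapped. In bulk samples, fewer cells of a type and less RNA per cell cannot be told apart. The column headers of normal replicate 1 and glioma replicate 1 carry the letters ECS, which the labels do not explain, and the other 4 headers do not. Since each group has libraries of both header types, differences are also given within them, as 1 library against 1 and 2 against 2. Within them the endothelial marker sum was lower in glioma: 1.03% against 1.93%, and 2.05% and 1.41% against 3% and 3%. Of the 12 markers, 4 were lower and 1 higher in glioma within both types, where 12.1% and 13.5% of all genes were. The part of this in the members' levels was not tested.

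No member passed the threshold. The limma fit covered 11862 genes, of which 0 (0%) were higher and 0 (0%) were lower in glioma at a Benjamini-Hochberg adjusted p of 0.05. Without adjustment, 279 higher genes (2.35%) and 230 lower genes (1.94%) had p under 0.05, among them 0 of the 8 tested members. Fitted without limma's mean trend, 15 genes passed the threshold, none of them a member. Sox7 was the 1 member whose glioma values all lay above its normal values, where 6.91% of all genes did so. No member had all its glioma values below its normal values, where 6.37% of all genes did. The median difference of the 8 tested members was -0.34 on the log2 scale, beside 0.05 over all genes tested and -0.18 over the 5880 genes that, like these 8, were above 0 in all libraries.

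**Figure D1:**
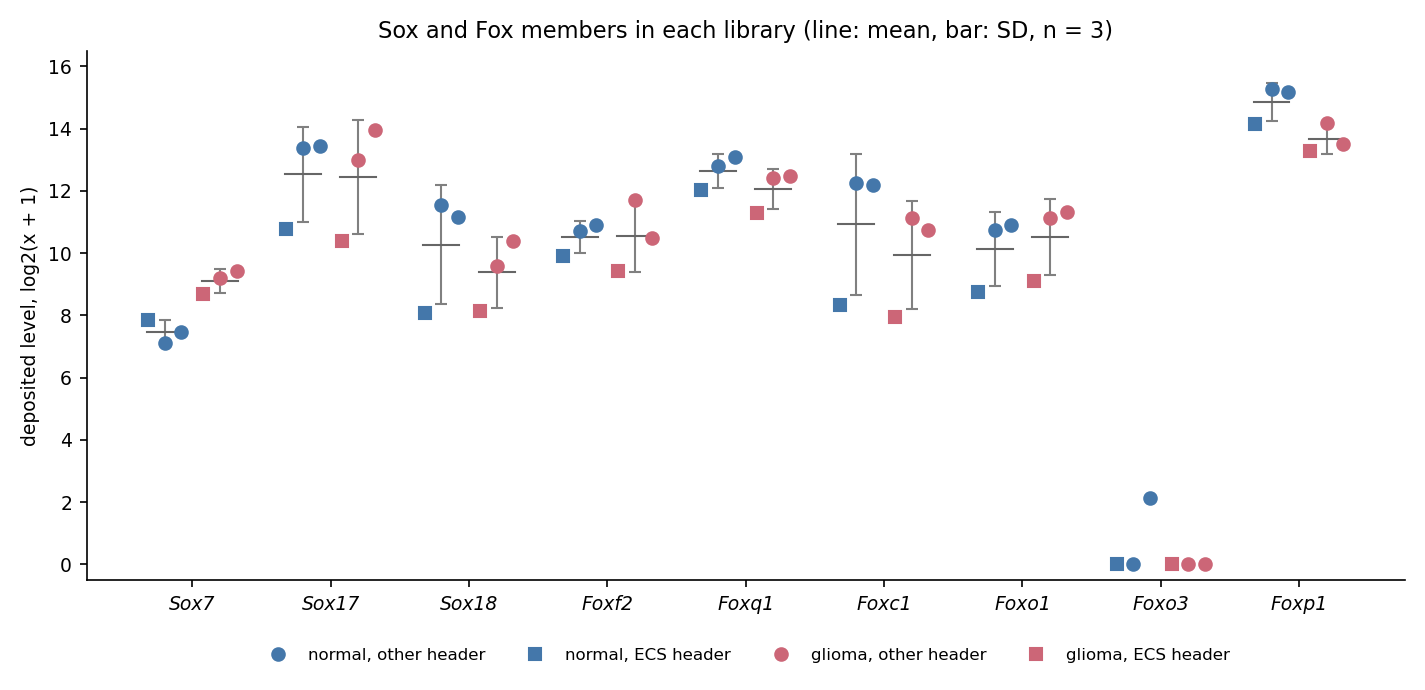
Deposited log2 level (y axis) of the 9 members (x axis) in each of the 6 libraries, normal in blue and glioma in red, with squares for headers with ECS and circles for the others; lines are means and bars SD (n = 3), left out for Foxo3. Sox7 shows 2 separate groups, at 7.11 to 7.85 and 8.68 to 9.43, while the squares of Sox17, Sox18, Foxc1 and Foxo1 lie well below their circles in either group.

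Of the SoxF genes, 1 separated the groups and the others overlapped. Sox7 (chromosome 14, 63943673 to 63950732, plus strand) had levels of 7.85, 7.11 and 7.47 in normal and 8.68, 9.20 and 9.43 in glioma endothelium, here and below in the order of replicates 1, 2 and 3. The 2 groups did not overlap, and the spread within each was small, with means of 7.48 ± 0.37 and 9.10 ± 0.38 (SD, n = 3 each). The difference of 1.63 (SE 0.88, 95% interval -0.38 to 3.64) did not pass over all genes (limma adjusted p = 0.875). That SE also draws on the spread of other genes of like mean level, so it is not the spread of Sox7 alone. It was 0.61 with only the genes above 0 in all libraries (limma adjusted p = 0.78) and 0.99 with a replicate block (0.79). The difference was 0.84 within the ECS headers and 2.02 within the others, in the same direction. Relative to the other genes of a library, Sox7 stood at percentiles 10.6, 33.9 and 44.5 of the genes above 0 in normal endothelium and at percentiles 60.5, 61.2 and 61.7 in glioma. Such a percentile depends on how many genes were above 0, from 7446 in normal replicate 1 to 13108 in glioma replicate 1. It therefore does not compare levels between libraries. The value of 7.85 in normal replicate 1 lay close to 7.43, the lowest value above 0 in that library.

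Sox17 (chromosome 1, 4490931 to 4497354, minus strand), a factor of arterial identity, was the most abundant SoxF gene in all 6 libraries. It was at 10.78, 13.37 and 13.44 in normal endothelium, and at 10.40, 12.98 and 13.94 in glioma endothelium. In each group replicate 1 was lower than the other pair by more than 2 on the log2 scale, and the groups overlapped over almost their whole range. The difference was -0.09 (SE 1.01, 95% interval -2.39 to 2.22, limma adjusted p = 0.992), an interval that holds changes of more than 2 in either direction. Within header types the difference was -0.37 and 0.06, and it was 0.93 without glioma replicate 1 and -0.96 without normal replicate 1.

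Sox18 (chromosome 2, 181669836 to 181671640, minus strand), mutated in a human syndrome of hair, lymphatic and small vessel defects, was at 8.09, 11.56 and 11.17 in normal endothelium, and at 8.15, 9.59 and 10.40 in glioma endothelium. Replicate 1 was again the lowest of each group. The 8.09 in normal replicate 1 was at percentile 15.9 of the genes above 0 there, where the lowest value above 0 was 7.43. Among the other headers both glioma libraries lay below both normal libraries, with a mean difference of -1.37, while the ECS pair differed by 0.06. Over all 6 libraries the difference was -0.89 (SE 1.02, 95% interval -3.21 to 1.42, limma adjusted p = 0.878), and it was -1.98 without normal replicate 1, -0.25 and -0.44 without normal replicates 2 and 3 and -0.28 without glioma replicate 1.

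The balance among the SoxF genes can be read within each library, where a shift common to the 3 genes cancels. Sox17 exceeded Sox7 by 2.93, 6.26 and 5.96 in normal endothelium, and by 1.72, 3.78 and 4.52 in glioma endothelium. Sox18 exceeded Sox7 by 0.25, 4.45 and 3.70 in the normal libraries, and in glioma the gap was -0.53, 0.40 and 0.97. Sox7 was thus the lowest SoxF gene in every normal library and stood above Sox18 in glioma replicate 1. Within either header type both gaps were smaller in glioma, though over all libraries the groups overlapped. The gap from Sox17 to Sox18 was 2.69, 1.81 and 2.27 in normal endothelium, against 2.26, 3.38 and 3.54 in glioma, with no common direction across header types.

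**Figure D2:**
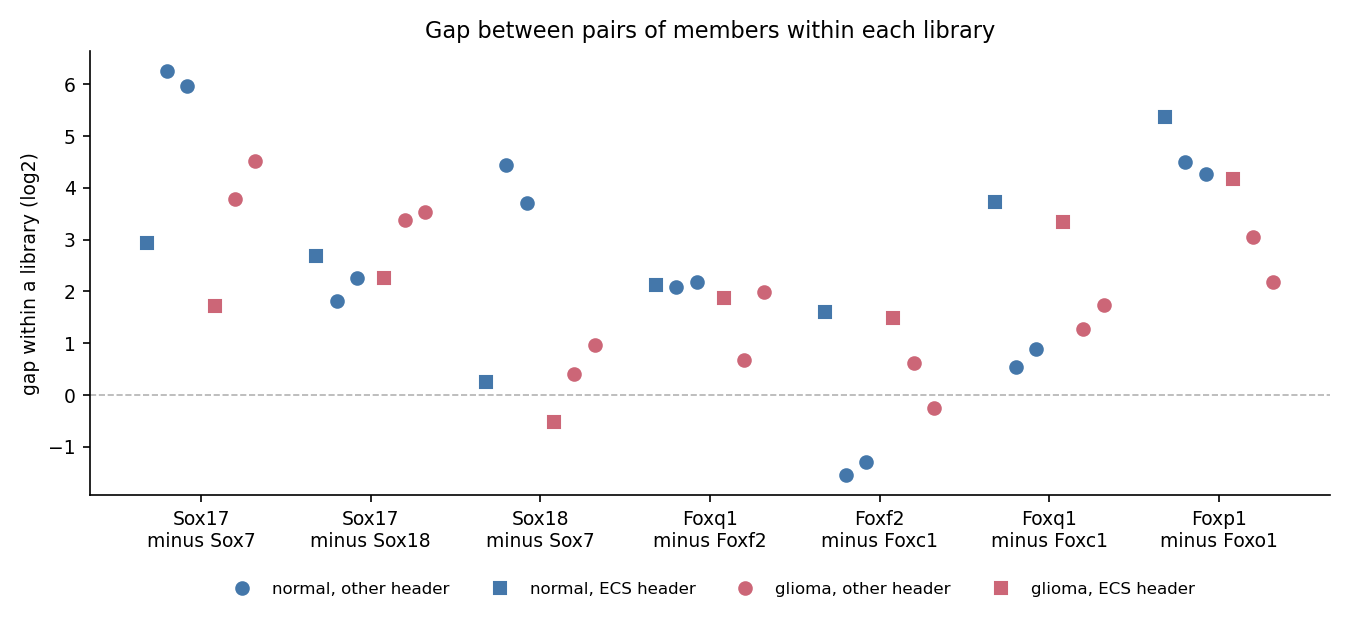
Gap between pairs of members within a library (y axis, log2) for 7 pairs (x axis), normal in blue and glioma in red, squares for headers with ECS. The gap from Foxp1 to Foxo1 was 4.26 to 5.38 in the normal and 2.19 to 4.18 in glioma endothelium, and that from Foxq1 to Foxf2 was 2.09 to 2.18 and 0.67 to 1.99.

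A run of 3 forkhead genes lies next to each other on chromosome 13 and on the same strand. Foxq1 (31556134 to 31560976) is followed by Foxf2 (31625816 to 31631403) after 64.8 kb and by Foxc1 (31806633 to 31812476) after a further 175.2 kb, with no protein-coding gene between them in GENCODE on GRCm38, the build that mm10 names. Their start regions are shown because the 3 neighbours had unlike levels across the libraries. RefSeq windows on GRCm38.p6 of 300 bases, from 250 before to 50 after a start, were at hand for 5 of the 9 members, among them Foxf2 and Foxc1. Capitals mark any match, on either strand, to the forkhead core TGTTTA, the Sox core AACAAT, the TCF/LEF core CTTTGA or the CCAAT box CCAAT. No 2 matches shared a base.
Foxf2, chr13:31625566-31625865, plus strand: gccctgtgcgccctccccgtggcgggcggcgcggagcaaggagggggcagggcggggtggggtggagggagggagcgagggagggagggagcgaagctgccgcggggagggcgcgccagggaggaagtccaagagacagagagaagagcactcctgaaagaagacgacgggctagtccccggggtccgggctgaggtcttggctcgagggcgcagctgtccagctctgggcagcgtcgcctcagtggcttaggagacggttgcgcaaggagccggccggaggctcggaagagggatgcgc
Foxc1, chr13:31806396-31806695, plus strand: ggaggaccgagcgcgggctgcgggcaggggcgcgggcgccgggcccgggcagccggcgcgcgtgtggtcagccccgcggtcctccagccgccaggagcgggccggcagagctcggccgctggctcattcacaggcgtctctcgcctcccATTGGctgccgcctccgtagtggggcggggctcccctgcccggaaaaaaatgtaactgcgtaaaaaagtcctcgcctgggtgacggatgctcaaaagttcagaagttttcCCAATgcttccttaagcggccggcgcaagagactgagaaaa
The Foxf2 window held no match and was 71.3% G or C, above 92.2% of all windows. The Foxc1 window held 2 CCAAT boxes, a motif found in 37.4% of the 32851 windows, and was 67.3% G or C. A match is a description of letters, and its absence says nothing of a factor's binding.

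Foxq1, a forkhead factor enriched in brain endothelium, was at 12.04, 12.80 and 13.10 in normal endothelium, and at 11.30, 12.40 and 12.47 in glioma endothelium. Its values were high and close together, from percentile 90.5 to percentile 97.9 of the genes above 0 over the 6 libraries. Glioma was lower within either header type (differences of -0.74 for ECS and -0.51 for the others), though normal replicate 1 lay below 2 of the glioma libraries. The difference over all 6 was -0.59 (SE 0.51, 95% interval -1.76 to 0.58, limma adjusted p = 0.875), and -0.21 without glioma replicate 1 and -0.89 without normal replicate 1.

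Foxf2, required in brain pericytes and endothelium for a tight barrier, was at 9.92, 10.72 and 10.91 in normal endothelium, and at 9.43, 11.72 and 10.48 in glioma endothelium. The glioma values lay on both sides of the normal ones. The difference was 0.03 (SE 0.68, 95% interval -1.51 to 1.57, limma adjusted p = 0.995), with -0.49 and 0.29 within the header types and 0.59 without glioma replicate 1. Foxq1 exceeded its neighbour Foxf2 by 2.12, 2.09 and 2.18 in the normal libraries, a nearly constant gap, and by 1.87, 0.67 and 1.99 in glioma endothelium. All 3 glioma gaps lay below the normal ones, the lowest of them in glioma replicate 2, where Foxf2 was at its highest. This pair was picked by hand from the members, so its gap is given without a test.

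Foxc1, a regulator of vascular and meningeal development, was at 8.32, 12.26 and 12.20 in normal endothelium, and at 7.95, 11.12 and 10.74 in glioma endothelium. It had the widest spread of the tested members within the normal group, with means of 10.93 ± 2.26 and 9.94 ± 1.73 (SD, n = 3 each). The ECS library of each group was far below the other pair, and glioma was lower within either header type, with differences of -0.37 and -1.31. The 8.32 in normal replicate 1 was at percentile 21.4 of the genes above 0 there, where the lowest value above 0 was 7.43. Over all 6 libraries the difference was -0.99 (SE 1.21, 95% interval -3.75 to 1.77, limma adjusted p = 0.884). It was -2.30 without normal replicate 1, -0.32 and -0.35 without normal replicates 2 and 3 and 0.00 without glioma replicate 1. With header type as a term in the limma fit its SE was 0.41 and its adjusted p 0.568. In that fit 2 members, Foxc1 (0.047) and Foxp1 (0.00588), had an unadjusted p under 0.05, as did 1041 of the 11862 genes.

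Pericytes and fibroblasts also express Foxf2 and Foxc1, so their markers are given here. Of 14 pericyte and smooth muscle markers, 11, 13 and 14 were above 0 in normal endothelium and 11, 13 and 11 in glioma endothelium, with summed levels of 0.0431% to 0.132% and 0.0616% to 0.112% of a library. Pdgfrb, the pericyte PDGF receptor, was at 11.15, 10.03 and 10.36 against 7.53, 10.10 and 10.95. The 2 highest, Rgs5 (13.47, 9.56 and 11.04 against 12.43, 12.21 and 10.03) and Abcc9 (10.76, 9.04 and 9.78 against 10.58, 10.94 and 13.14), overlapped as well. Wholly lower in glioma were 2 of the 14, where 6.37% of all genes tested were. They were Myh11 of smooth muscle (9.07, 9.40 and 9.49 against 0, 8.36 and 0) and Anpep (8.45, 6.54 and 6.31 against 6.28, 0 and 0), each with a limma adjusted p of 0.875. Of 12 fibroblast markers, 3, 4 and 7 were above 0 in normal endothelium, against 9, 5 and 2 in glioma, with Dpt and Dpep1 at 0 in all 6 and summed levels of 0.00547% to 0.0112% and 0.00148% to 0.0275%. Their part in the levels of Foxf2 and Foxc1 was not tested.

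The protein-coding neighbour of Foxc1 on the other side is Gmds, which encodes an enzyme of GDP-fucose synthesis and lies 7.1 kb away on the opposite strand, 3′ end towards Foxc1. Gmds read 0, 4.21 and 4.94 in normal and 9.06, 9.01 and 7.30 in glioma endothelium. As listed, its groups did not overlap, in the opposite direction to Foxc1, and the difference of 5.40 (SE 2.29) had a limma adjusted p of 0.875. The 0 of Gmds in normal replicate 1, where the lowest value above 0 was 7.43, cannot be ranked against 7.30 in glioma replicate 3. Among the neighbours of the other members, Mrpl15 beside Sox17 and Eif4e3 beside Foxp1 were above 0 in all libraries, and their groups overlapped.

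Foxp1, a repressor expressed in endothelium, neurons and lymphocytes, had the highest mean level of the members in both groups. It lies on the minus strand of chromosome 6 (98925338 to 99522721). It was at 14.14, 15.26 and 15.17 in normal endothelium, and at 13.29, 14.17 and 13.50 in glioma endothelium. It stood at percentiles 98.3 to 99.8 of the genes above 0. The groups met at a single point, since glioma replicate 2 lay just above normal replicate 1. Foxp1 had the smallest p of the members, with a difference of -1.20 (SE 0.53, 95% interval -2.41 to 0.01, unadjusted p = 0.0509), and the limma adjusted p was 0.875. The difference was -0.85 within the ECS headers and -1.38 within the others.

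Foxp1 has 3 start windows in the RefSeq table, and 3′ reads do not tell transcripts from different starts apart. The middle window is shown because it held matches to 3 of the 4 motifs searched.
Foxp1, chr6:99266466-99266765, minus strand: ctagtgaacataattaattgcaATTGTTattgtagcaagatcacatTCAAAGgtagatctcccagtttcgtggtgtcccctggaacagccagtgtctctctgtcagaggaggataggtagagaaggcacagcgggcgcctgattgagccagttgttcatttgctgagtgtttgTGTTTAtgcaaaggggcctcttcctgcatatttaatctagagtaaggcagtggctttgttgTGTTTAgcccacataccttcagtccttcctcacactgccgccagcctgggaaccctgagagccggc
It held 2 forkhead cores, 77 and 16 bases before the start, 1 Sox core and 1 TCF/LEF core. Each of the other 2 Foxp1 windows held 1 forkhead core, a motif found in 13.4% of all windows. The Sox and TCF/LEF cores were found in 10.7% and 16% of all windows, and the windows of Foxo1 and Foxo3 held none of these 3 cores.

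Foxo1, which restrains endothelial growth and metabolism, was the FoxO gene with the highest mean. It lies on the plus strand of chromosome 3 (52268336 to 52353221). It was at 8.75, 10.75 and 10.90 in normal endothelium, and at 9.11, 11.13 and 11.31 in glioma endothelium. Within either header type the glioma libraries were the higher, by 0.36 and 0.39, but the ECS libraries stood about 2 below the others and the groups overlapped. The difference was 0.38 (SE 0.82, 95% interval -1.49 to 2.25, limma adjusted p = 0.936), and it was -0.31 without normal replicate 1.

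Foxo3, a broadly expressed relative of Foxo1 (chromosome 10, 42181841 to 42276755, minus strand), was listed at 0 in normal replicates 1 and 2 and in all 3 glioma libraries. Its 1 value above 0 was 2.12, in normal replicate 3. It did not pass the filter, and no difference is given. A 0 is reported only as a listing, since Tbp, a core transcription factor of all cells, was also listed at 0 in normal replicate 1. Foxo4, another FoxO gene, read 0, 9.25 and 9.18 in normal and 6.65, 9.22 and 9.32 in glioma endothelium.

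Foxp1, Foxo1 and the Sox genes are also expressed outside endothelium, so the levels of other cell types are given here. Of 16 microglia and macrophage markers, 6 to 9 were above 0 per normal and 3 to 14 per glioma library. Their summed levels were 0.00167% to 0.0242% and 0.00515% to 0.0801%, the highest in glioma replicate 3. Of 11 neuronal markers, led by Map2 and Stmn2, 3 to 11 and 2 to 10 were above 0. The neuronal sums were 0.00632% to 0.0133% and 0.000343% to 0.0558%, the highest in glioma replicate 1. The sums of 9 astrocyte markers, led by Slc1a2 and Gja1, ran from 0.0544% to 0.076% and from 0.0234% to 0.114%. Oligodendrocyte lineage markers, 10 in number, summed to 0.00143% to 0.0221% and 0.0044% to 0.0167%. Erythroid markers, 6 in number and led by the alpha-globin genes Hba-a1 and Hba-a2, summed to 0.0887% to 0.333% and 0.0821% to 2.42%, the highest in glioma replicate 1. Each range is normal first, the groups overlapped for all 5 lists, and their part in the members' levels was not tested.

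The gap between Foxp1 and Foxo1 within a library separated the groups. It was 5.38, 4.51 and 4.26 in normal endothelium and 4.18, 3.05 and 2.19 in glioma endothelium, with means of 4.72 ± 0.59 and 3.14 ± 1.00 (SD, n = 3 each). The highest glioma value lay just under the lowest normal value. The gap was chosen after the values had been seen, so it is given without a test. Only some pairs of members were looked at, and the share of separated pairs over all genes is not known.

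**Figure D3:**
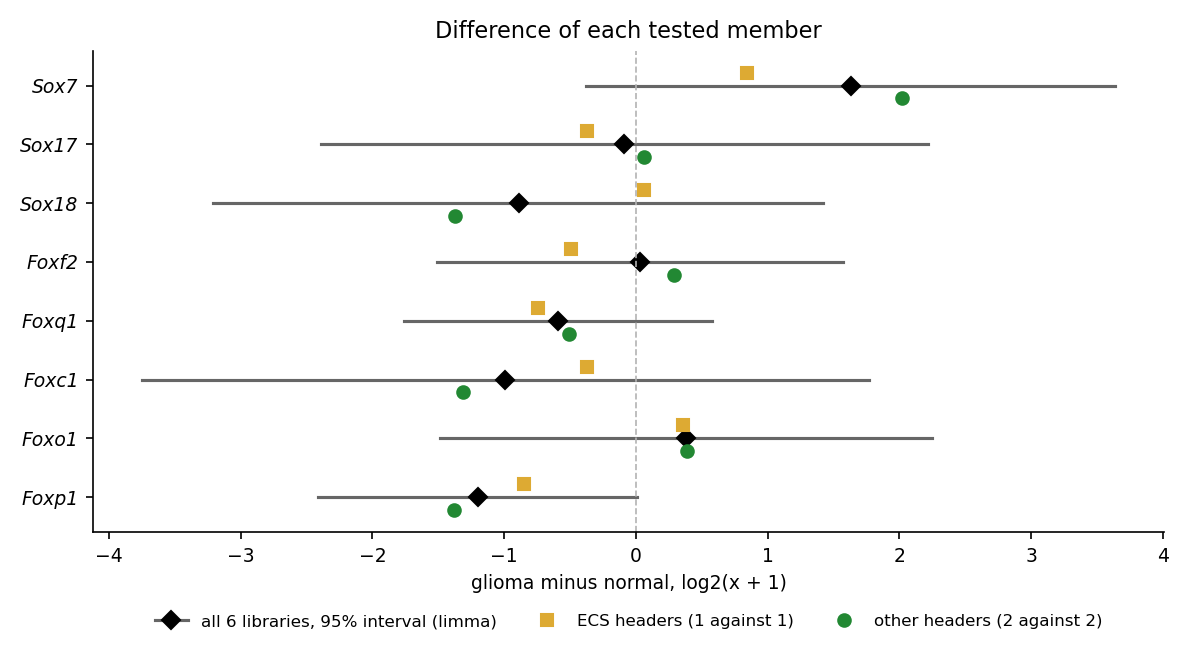
Difference between glioma and normal (x axis, log2) for the 8 tested members (y axis): diamonds with 95% intervals from limma over all 6 libraries, squares for the ECS pair and circles for the other 2 against 2. Every interval includes 0, and squares and circles lie on the same side of 0 for Sox7, Foxq1, Foxc1, Foxo1 and Foxp1.

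The ECS libraries stood apart for most members. For Sox17, Sox18, Foxf2, Foxq1, Foxc1 and Foxo1, 6 of the 8 tested members, both ECS libraries lay below the other 4, as did 17.2% of all genes tested, and 0 members had both above the other 4, as did 12.8% of all genes. The order was not particular to the members. Both ECS libraries lay below the other 4 for 5 of 12 endothelial markers and above for 2. For the 18 barrier effector genes the counts were 7 below and 2 above. Within both header types at once, every glioma library was above every normal library for 2 members, Sox7 and Foxo1, where 13.5% of all genes were. Likewise glioma was lower for 3 members, Foxq1, Foxc1 and Foxp1, where 12.1% of all genes were. What the header type stands for was not tested. Leaving out both ECS libraries gave differences of 2.02 for Sox7, -1.37 for Sox18, -1.31 for Foxc1 and -1.38 for Foxp1, with unadjusted p from 0.00581 to 0.0265 and limma adjusted p from 0.126 to 0.187. Over all genes 2446 of 11862 had an unadjusted p under 0.05 in that fit, against 509 with all 6 libraries.

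By level, Foxp1 led the members in the normal group without overlap with the next, Foxq1. Foxq1 and Sox17 overlapped, as did Sox17, Foxc1, Foxf2, Sox18 and Foxo1 each with the next, and Sox7 stood below Foxo1 without overlap. In glioma the order of the means was Foxp1, Sox17, Foxq1, Foxf2, Foxo1, Foxc1, Sox18 and Sox7, and each overlapped with its neighbour in that order. Foxp1 and Sox17 overlapped because Sox17 exceeded Foxp1 in glioma replicate 3, at 13.94 against 13.50. Foxo3 was last in both groups.

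Among the 5880 genes above 0 in all libraries, likeness to a member was measured as the root mean square difference over the 6 libraries after centring each gene on its mean. The pattern nearest to Sox7 was that of Actr3, a subunit of the actin-nucleating Arp2/3 complex, at a distance of 0.23, where the median gene lay at 1.26. Each nearest gene was picked for its small distance, so lying under the median follows from that choice. Sox17 was nearest to Pls3, an actin-bundling plastin (0.16), and then to Nos3, the endothelial nitric oxide synthase (0.23), with a median of 1.63. Sox18 was nearest to Birc2 (0.23) and Ushbp1 (0.24). Foxf2 was nearest to Crim1 (0.19) and Cr1l (0.20), Foxq1 to Zdhhc3 (0.12) and Ttc4 (0.15), and Foxc1 to Pakap (0.16) and Akap2 (0.21). Foxo1 was nearest to Clic4, a chloride channel protein (0.13), and Dnajc3 (0.18), and Foxp1 to Fam32a (0.11) and Sh3rf1 (0.17). Among the members themselves Foxq1 and Foxp1 were closest (0.44), then Sox17 and Foxo1 (0.49), while Sox7 and Foxc1 were farthest apart (2.14).

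The other Sox and Fox genes showed which relatives were measurable. Over all genes tested, 6.91% were wholly higher and 6.37% wholly lower in glioma. Of 16 further Sox genes 10 were tested, with 0 past the threshold, 2 wholly higher and 0 wholly lower, and a median difference of 1.20. The 2 were Sox2, a factor of neural progenitors, at 0, 0 and 1.22 in normal endothelium, against 7.92, 5.53 and 8.47 in glioma, and Sox11, a factor of immature neurons, at 0, 2.84 and 1.12 in normal endothelium, against 13.89, 6.13 and 7.58 in glioma. Both had a limma adjusted p of 0.875. The lowest value above 0 in normal replicate 1 was 7.43. Its 0 for either gene therefore cannot be ranked against 5.53 for Sox2 and 6.13 for Sox11 in glioma replicate 2. Sox2 lies inside Sox2ot on the same strand, which was at 7.43, 2.84, 0, 3.37, 0 and 0 in the same order. Other progenitor markers varied beside them: Dcx was at 7.85, 4.68 and 3.17 against 11.89, 4.78 and 0, and the summed level of the 8 markers was 0.0906% to 0.336% in normal endothelium, against 0.13% to 0.289% in glioma. Their part in the levels of Sox2 and Sox11 was not tested. The further Sox genes with the highest means were Sox4 (9.73, 10.02 and 10.02 against 12.81, 10.74 and 9.57), Sox9 and Sox13, whose groups overlapped.

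Of 38 further Fox genes 17 were tested, with 0 past the threshold, 0 wholly higher and 2 wholly lower, and a median difference of -0.58. Over all genes tested, 6.91% were wholly higher and 6.37% wholly lower. Foxs1, a factor found in pericytes, was at 8.15, 5.45 and 5.09 in the normal libraries and listed at 0 in all 3 glioma libraries. The lowest value above 0 in glioma replicate 3 was 5.22, so the 0 there cannot be ranked against 5.09 in normal replicate 3. The pericyte and smooth muscle markers Myh11 and Anpep, given above, were also wholly lower, while Rgs5, Abcc9 and Pdgfrb overlapped, and their part in the level of Foxs1 was not tested. Foxj3 was at 9.51, 9.58 and 9.35 in normal endothelium, against 9.25, 4.95 and 6.16 in glioma. Foxk1, which regulates metabolism and autophagy, had the highest mean, at 10.01, 11.56 and 11.29 against 8.62, 10.20 and 9.93, and was lower within both header types (difference -1.37, SE 0.67, limma adjusted p = 0.875). Foxl2 was at 10.87, 10.24 and 10.01 against 10.45, 9.46 and 9.47. Foxf1, the close relative of Foxf2, was at 8.70, 10.45 and 10.13 against 6.54, 10.89 and 9.01, with glioma replicate 2 the highest as for Foxf2.

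**Figure D4:**
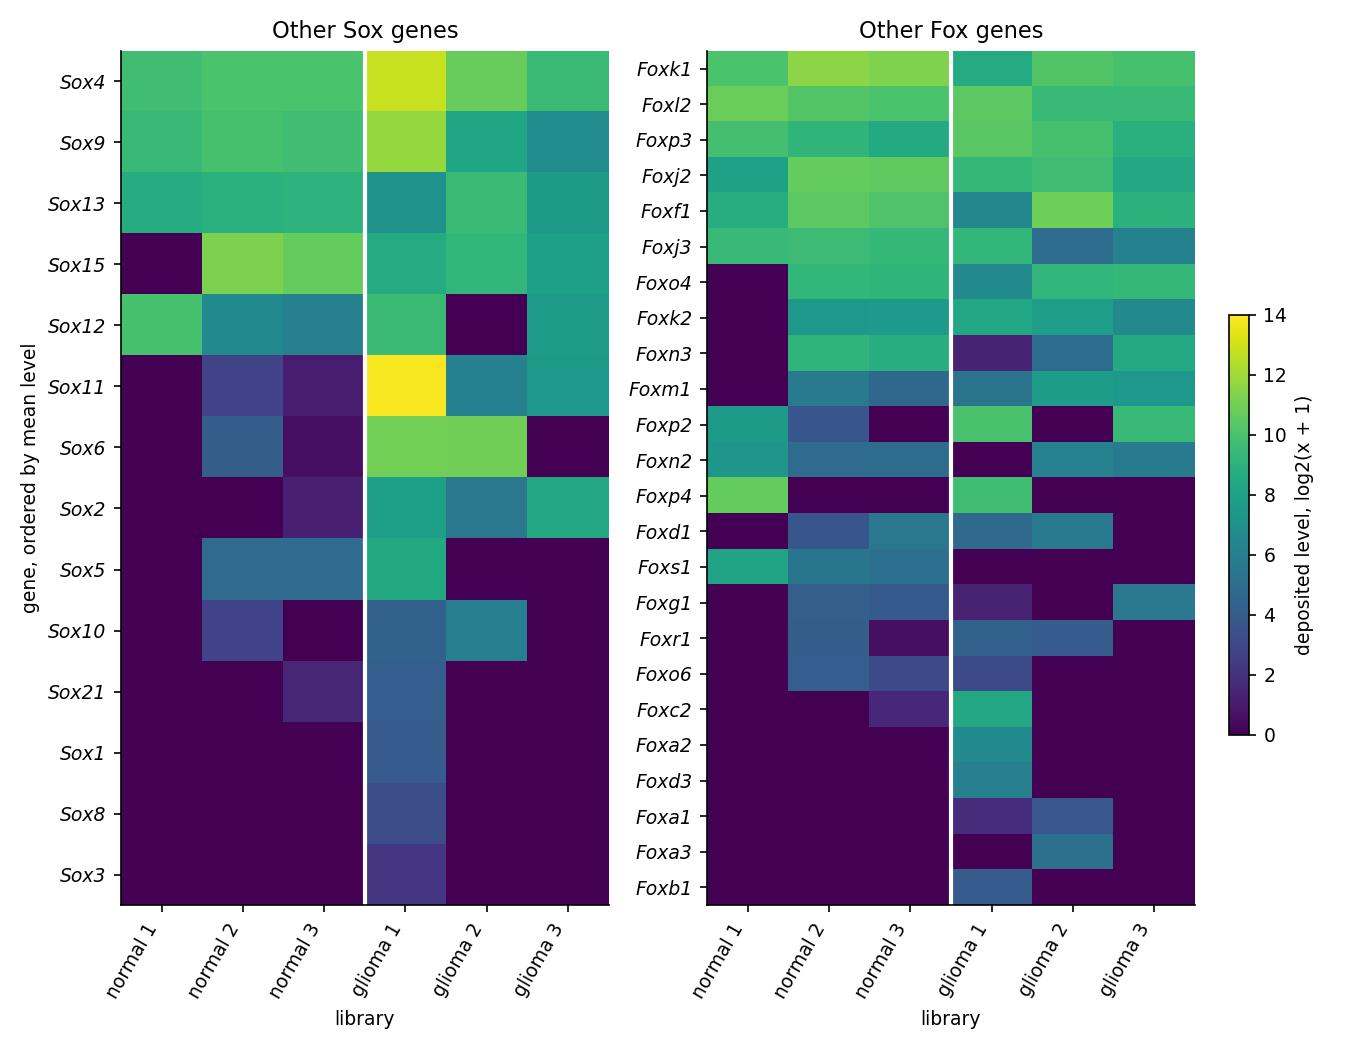
Deposited log2 level (color, 0 to 14) of the other Sox genes (left) and Fox genes (right) above 0 in at least 1 library, with genes in rows ordered by mean and libraries in columns, normal before the white line and glioma after it. Sox2 and Sox11 are dark in the normal columns, and Foxs1 is dark in the glioma columns.

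Genes around the members were taken from lists of known regulators, partners and targets. Over all genes tested, 6.91% were wholly higher and 6.37% wholly lower, shares to set beside the counts of each list here and below. Of 20 FoxO regulators 19 were tested, with 0 past the threshold in either direction, 2 wholly higher, 1 wholly lower and a median of 0.23. Akt1, the kinase that phosphorylates FoxO proteins, was at 8.91, 10.73 and 10.54 in normal endothelium, against 10.86, 11.85 and 11.73 in glioma (difference 1.42, SE 0.63, limma adjusted p = 0.875). Sgk3, a related kinase, was at 9.25, 6.35 and 8.67 against 9.79, 9.46 and 10.00. Pik3cb, a catalytic subunit of PI 3-kinase, was the 1 wholly lower gene, at 9.22, 9.41 and 9.02 against 6.93, 8.25 and 8.53. Ywhaz, a 14-3-3 protein that binds phosphorylated FoxO, was the highest and overlapped between groups.

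Of 23 FoxO targets 22 were tested, with 0 past the threshold in either direction, 1 wholly higher, 1 wholly lower and a median of -0.10. Insr, the insulin receptor, was at 12.31, 12.53 and 12.44 in normal endothelium, against 10.54, 11.31 and 11.35 in glioma (difference -1.36, SE 0.44, limma adjusted p = 0.875). Cited2, a transcriptional cofactor, was at 0, 5.84 and 6.92 against 9.25, 7.97 and 8.89. Klf2, a flow-induced factor, was the highest and overlapped. Ccng2, a cyclin induced by FoxO factors, was at 8.64, 9.0 and 9.20 against 8.75, 8.53 and 9.26.

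Of 21 SoxF targets 20 were tested, with 0 past the threshold in either direction, 0 wholly higher, 1 wholly lower and a median of 0.07. Egfl7, an endothelial secreted factor and the highest of the list, was at 17.31, 17.62 and 17.62 in normal endothelium, against 15.83, 17.07 and 15.56 in glioma. Ecscr, an endothelial surface protein, was at 11.94, 7.24 and 7.68 against 11.12, 11.07 and 10.68. The arterial genes Notch1 (10.75, 10.92 and 11.00 against 10.73, 11.19 and 10.23) and Dll4 (10.97, 8.66 and 9.06 against 10.13, 10.51 and 9.43) overlapped between the groups.

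Of 27 genes of the Wnt/beta-catenin pathway 25 were tested, with 0 past the threshold in either direction, 0 wholly higher, 1 wholly lower and a median of -0.43. Lrp6, a Wnt co-receptor, was the lower gene, at 8.18, 8.75 and 9.54 in normal endothelium, against 6.54, 7.0 and 7.07 in glioma. Tcf7l1 was at 9.63, 9.40 and 10.17 against 9.62, 6.48 and 8.57. Ctnnb1, which encodes beta-catenin, was the highest, and in normal replicate 1 it was at 10.85 beside 15.19 in both other normal libraries. Axin2, a feedback target of the pathway, was at 9.14, 9.39 and 9.58 against 5.51, 9.17 and 8.5.

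Of 18 barrier effector genes 18 were tested, with 0 past the threshold in either direction, 0 wholly higher, 1 wholly lower and a median of -0.31. Slc38a5, an amino acid transporter, was the lower gene, at 11.99, 11.66 and 11.44 in normal endothelium, against 11.08, 10.49 and 10.60 in glioma. Slc7a5, a large neutral amino acid transporter, was the highest, at 16.83, 15.40 and 15.83 against 16.39, 16.15 and 13.65. Cldn5, the main claudin of these vessels and a member of this list and of the SoxF targets, was at 13.62, 15.92 and 16.15 against 13.13, 15.04 and 13.47. Of 14 cofactors 12 were tested, with 0 past the threshold, 1 wholly higher, 0 wholly lower and a median of 0.06. Rbpj, the DNA-binding partner of Notch, was the higher gene, at 11.03, 10.42 and 10.30 in normal endothelium, against 11.31, 11.08 and 11.49 in glioma. Foxk1, described above, had the smallest p of the cofactors, and Erg, an endothelial ETS factor, was the highest, at 15.40, 12.57 and 13.57 against 13.71, 14.51 and 13.76.

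Within both header types at once, where 13.5% of all genes were higher and 12.1% lower in glioma, 0 barrier effector genes were higher and 6 of 18 lower. The counts were 3 higher and 3 lower for the FoxO regulators, 1 and 1 for the FoxO targets, 1 and 2 for the SoxF targets, 1 and 3 for the Wnt/beta-catenin pathway and 1 and 2 for the cofactors.

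**Figure D5:**
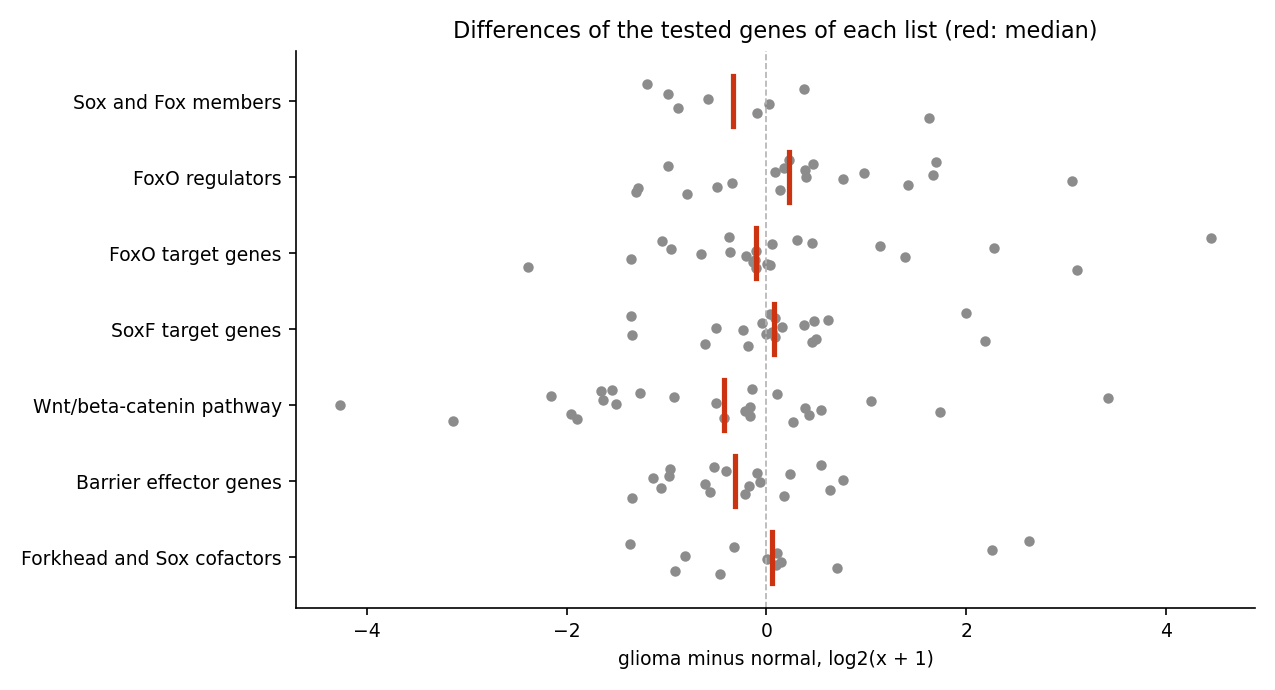
Difference between glioma and normal (x axis, log2) for each tested gene of the members and of 6 fixed lists (y axis), each gene a grey point and each list's median a red bar. Medians lie between -0.43 for the Wnt/beta-catenin pathway and 0.23 for the FoxO regulators, with single genes spread on both sides of 0.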

How the data were processed

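RNA of 6 sorted endothelial samples was profiled with a 3′ QuantSeq kit, per the labels' protocols. The deposited log2 values carry no stated normalization. They share a maximum of 20.85 and an upper quartile in all 6 libraries, so they were read as log2(x + 1) after quantile normalization by the authors. Bowtie2, edgeR and mm10 are named per the submitters' processing notes; the sources used here give no counting tool, strand use or annotation. Groups were taken from the sample titles. Genes reaching 1 after back-transformation in 3 or more libraries entered the test. It was limma 3.58.1 (R 4.3.3) with its trend option and a group term, which leaves 4 residual degrees of freedom. Benjamini-Hochberg adjustment ran over all 11862 genes. The procedure was run on simulated data with larger shifts and less spread than most members showed, so that run does not measure power here. Members and lists were chosen with earlier results of these data known. By rule, the text names all 9 members, from each list the 2 genes with the smallest p and the highest gene, the 3 highest relatives with those that do not overlap, the nearest patterns and chromosome neighbours, and the 2 highest genes of each marker list, some of which are not reported here. Further genes were picked as well-known family or pathway genes after their values had been seen. A listed gene missing by symbol was matched through RefSeq synonyms. Coordinates are from GENCODE M21 on GRCm38; genes overlapping a member lay outside the last 1000 bases of its 3′ end. The labels do not say whether replicate numbers pair the samples, and the main fit did not pair them.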

Additional observations from a re-analysis of the deposited data

How the results depend on the processing

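None of the 8 tested members passed an adjusted p of 0.05 under any of 17 alternatives with limma; the lowest adjusted p was 0.126, for Foxc1. The number of genes past the threshold was 0 except without the mean trend, where it was 15, none of them a member. Sox7 kept its direction throughout (1.44 to 2.02), as did Foxp1 (-1.56 to -1.0), Foxq1 (-0.89 to -0.21) and Sox18 (-1.98 to -0.25), while Foxc1 ranged from -2.30 to 0.00, the latter without glioma replicate 1. Sox17 turned to 0.01 with libraries shifted to a common median and to 0.06 without both ECS libraries, and ranged from -0.96 to 0.93 with 1 library left out. Foxf2 ranged from -0.56 to 0.59 and Foxo1 from -0.31 to 1.08 with 1 library left out, both turning lower without normal replicate 1 (-0.27 and -0.31), Foxf2 also without glioma replicate 2 (-0.56) and Foxo1 without glioma replicate 3 (-0.02). Members wholly lower in glioma numbered 0 to 4 with 1 library left out, 4 of them without normal replicate 1, where 20.7% of all genes were wholly lower. Members wholly higher numbered 1 to 2 in the same fits, 2 of them without glioma replicate 1, where 15% of all genes were wholly higher. Shifting libraries to the endothelial markers gave 2 wholly lower, beside 5.14% of all genes. Leaving out both ECS libraries gave 2 wholly higher and 4 wholly lower, beside 24.6% and 30.9% of all genes. The cause was not tested. The median of all genes was 0.05, and -0.35 without normal replicate 1. With a replicate block the differences were the same, Sox7 at 1.63 and Foxp1 at -1.20 (adjusted p = 0.790 each) with 0 genes called. Deviations from group means correlated at 0.19, 0.15 and 0.06 for the 3 numbers over 5880 genes. Between unlike numbers the correlations ran from -0.19 to 0.19, the highest for normal replicate 3 with glioma replicate 2. The header term, endothelial shift and removal of both ECS libraries were chosen after seeing the data. Depth is unknown, so limits of detection are not given.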

Other observations

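Foxp3, the factor of regulatory T cells, was among the 3 highest Fox genes outside the members. It was at 9.86, 9.14 and 8.58 in normal endothelium, and at 10.43, 9.94 and 8.90 in glioma endothelium. Of the 10 T and NK cell markers in the files, 8 were listed at 0 in all 6 libraries, among them Cd3e, Cd3g and Cd4, while Cd3d was at 7.67, 4.88 and 3.25 in normal endothelium, against 0, 3.82 and 0 in glioma. Il2rb, the remaining marker, was at 8.06 in glioma replicate 3 and listed at 0 in the other 5. Within 1000 bases of its 3′ end, Foxp3 overlaps Ccdc22, a broadly expressed gene on the opposite strand, which was at 8.69, 7.53 and 6.84 in normal endothelium, against 8.79, 8.26 and 7.34 in glioma. Foxp3 was the higher of the pair in every library. The sources used here do not say whether counting used strand, so reads from the pair cannot be told apart.

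Several other members of the Fox family were above 0 in few libraries. Foxp4 was at 10.67 in normal replicate 1 and 9.73 in glioma replicate 1, the libraries with ECS headers, and listed at 0 in the other 4. Foxc2, the paralog of Foxc1 with roles in lymphatic valves, had 1.58 in normal replicate 3 and 8.47 in glioma replicate 1, and 0 elsewhere. Sox15 read 0, 11.22 and 10.71 in normal and 8.59, 9.26 and 7.92 in glioma endothelium. Foxp2, a neuronal relative of Foxp1, was at 7.61, 3.77 and 0 in normal endothelium, against 9.98, 0 and 9.51 in glioma.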
